A study of Mus musculus with 24 samples.

Results

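The interferon-stimulated genes described here are 37 genes that cells switch on after an interferon signal. They were found by the gene name on the array, with older symbols read through the accession of the probe. The array carried 58 probes for them, and 36 of the 37 genes had a probe bright enough to be tested, among 20389 genes in all. The remaining gene, Oas1g, had no probe that passed the brightness filter.

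Expression was measured in the oesophagus of male C57BL/6J mice aged 12 weeks. Wild-type mice and Nrf2-/- mice, called Nrf2-null below, had either no reflux or gastric, duodenal or mixed reflux lasting 4 weeks, which gave 8 groups of 3 arrays. Nrf2, encoded by Nfe2l2, drives the cell's defence against oxidants and electrophiles, and the study's design compared the genotypes within each condition. Each group's arrays are labelled as biological replicates, which p-values here take as separate samples. The labels do not say whether animals were pooled, nor in which cells the gene was inactivated. The tissue field reads whole oesophagus in 7 groups but epithelium in Nrf2-null mixed reflux, while all source names say epithelium. Each array set oesophageal RNA (dye Cy5) against a reference RNA pooled from 11 mouse cell lines (dye Cy3), and a level is the log2 ratio of the 2 dyes after normalisation, so it is not comparable between genes.

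Interferons are secreted proteins that alert cells to infection. Type I interferons (alpha and beta) signal through the receptor chains IFNAR1 and IFNAR2 to a complex that holds STAT2 and IRF9 and binds the interferon-stimulated response element in promoters. Interferon gamma, made mainly by T and NK cells, signals through IFNGR1 and IFNGR2 to factors that bind the gamma-activated site, and induces the transcription factor IRF1. The products bind viral RNA, block translation, degrade RNA, guard vesicles against microbes and load peptides on MHC class I. Many of these genes answer both kinds of interferon.

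Promoter stretches of genes that the results turn on are shown to set the motifs of the pathway beside the values. The core of the response element was searched as 2 copies of GAAA with any 2 bases between them, and that of the gamma-activated site as TTCNNNGAA, both on either strand, in windows of 250 bases before to 50 after the annotated start in RefSeq (GRCm38.p6). Of the 37 genes, 30 had a window. The response element core stood in 16 of these 30 (53.3%), against 3.99% of 27025 genes with a window. The gamma site core stood in 9 of 30 (30%), against 9.55% of all, and both in 4 (13.3%), against 0.614%. All 4 GTPases held the response element core, and none of the 3 antigen-processing genes did. Below are 150 bases that end 1 base before the start, 5′ to 3′ on the gene's strand, with either motif in capitals; where matches overlap they form one longer run in capitals. Isg20 has 3 listed starts and Gbp3 has 2. For these the stretch with most matches is shown, and the windows of their other starts held no match. A match is a string of letters and no proof of binding.
Isg15: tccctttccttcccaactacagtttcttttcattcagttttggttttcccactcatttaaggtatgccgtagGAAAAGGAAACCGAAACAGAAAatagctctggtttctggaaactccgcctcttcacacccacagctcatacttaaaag
Ifit1: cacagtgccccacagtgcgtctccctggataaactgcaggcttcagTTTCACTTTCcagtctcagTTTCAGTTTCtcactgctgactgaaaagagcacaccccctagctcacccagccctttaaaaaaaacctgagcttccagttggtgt
Rsad2: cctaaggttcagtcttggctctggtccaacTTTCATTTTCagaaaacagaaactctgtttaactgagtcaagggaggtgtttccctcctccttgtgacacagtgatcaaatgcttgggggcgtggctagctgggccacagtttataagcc
Oas3: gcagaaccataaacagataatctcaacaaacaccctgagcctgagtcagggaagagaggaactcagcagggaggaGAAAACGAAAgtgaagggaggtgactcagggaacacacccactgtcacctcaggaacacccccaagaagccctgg
Oasl1: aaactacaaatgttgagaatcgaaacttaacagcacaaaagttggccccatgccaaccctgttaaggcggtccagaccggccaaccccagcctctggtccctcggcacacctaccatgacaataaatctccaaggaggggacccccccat
Isg20: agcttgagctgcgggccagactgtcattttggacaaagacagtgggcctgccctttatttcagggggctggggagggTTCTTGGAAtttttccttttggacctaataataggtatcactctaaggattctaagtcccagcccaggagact
Igtp: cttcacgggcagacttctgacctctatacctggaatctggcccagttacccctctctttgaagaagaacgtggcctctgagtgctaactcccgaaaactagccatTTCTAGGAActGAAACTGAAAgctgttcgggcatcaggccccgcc
Gbp3: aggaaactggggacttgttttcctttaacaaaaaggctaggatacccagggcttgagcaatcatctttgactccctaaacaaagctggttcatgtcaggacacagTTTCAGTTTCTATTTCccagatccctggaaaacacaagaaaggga
Psmb8: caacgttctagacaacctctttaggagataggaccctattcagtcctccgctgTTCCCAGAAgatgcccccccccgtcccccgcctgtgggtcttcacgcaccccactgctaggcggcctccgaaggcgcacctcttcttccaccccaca
Isg15 (chr4:156200819-156200968, minus strand) held 3 overlapping response element cores. Ifit1 (chr19:34640739-34640888, plus strand) held 2, Gbp3 (chr3:142559894-142560043, plus strand) 2 that overlap, and Rsad2 (chr12:26456453-26456602, minus strand) and Oas3 (chr5:120777660-120777809, minus strand) 1 each. Igtp (chr11:58199406-58199555, plus strand) held 1 core of each kind, and Psmb8 (chr17:34198045-34198194, plus strand) and Isg20 (chr7:78913274-78913423, plus strand) 1 gamma site core each. Oasl1 (chr5:114923090-114923239, plus strand) held neither string in this stretch.

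The arrays differed in ways that bear on every result. Nfe2l2 matched its label on all arrays that measured it, with levels of 1.31 to 2.05 on 10 wild-type arrays and -7.54 to -5.03 on 12 Nrf2-null arrays. One library labelled male, Nrf2-null gastric reflux replicate 2, had Xist at -1.78, against -4.67 or lower on the other 23 arrays, and Ddx3y at -4.20, against 0.161 or higher. Median Cy5 signal was low on Nrf2-null gastric reflux replicate 1 and Nrf2-null duodenal reflux replicate 2 (log2 of 6.46 and 6.41). Wild type without reflux replicates 1 and 2 shared the first slide and scan day, where 13% and 11.8% of spots were marked as outliers, so 5 members (Irf1, Trim25, Bst2, Ifi35 and Psmb9) had values from only 1 or 2 of its arrays. Arrays of 3 scan days entered, and wild type and Nrf2-null gastric reflux shared no day. The 3 arrays of Nrf2-null mixed reflux differed from each other by little more than repeat spots of a probe, with a variance ratio of 1.63 to 2.61 against 5.85 to 469 for pairs of arrays in other groups, and were counted as 1 sample. Markers of squamous keratinocytes (10 or more of 11 tested) and of skeletal muscle (13 or more of 14) were above background on every array, those of Nrf2-null mixed reflux included, where the label names epithelium alone.

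One array, Nrf2-null gastric reflux replicate 3, carried the highest level of nearly all of these genes. Of the 30 members measured on all 24 arrays it was the highest for 28, against 3.05% of 15261 genes measured on all arrays. The exceptions were Isg20 and, with the probe used, Ddx58, which encodes the RNA sensor RIG-I. Isg20 is an exonuclease that degrades RNA. The array stood more than 1 log2 unit above the middle array of its group for 29 of 36 members, against 1.61% of 20368 genes. The mean level over the 30 genes, each centred on its median over the arrays, was 3.17 there and -0.35 to 1.03 on the other 23 arrays. The 2 other arrays of its group gave 0.56 and -0.23, so the group's mean rested on this array. Replicate 2 in turn lay more than 1 log2 unit below the middle array for 12 of 36 members, against 1.81% of genes.

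The second highest array for 19 of those 28 members was Nrf2-null without reflux replicate 3, with a mean centred level of 1.03. It stood more than 1 log2 unit above its group's middle array for 17 of 36 members, against 0.644% of 20345 genes. For 8 of the 28 the second highest was Nrf2-null gastric reflux replicate 1. No other array of the 8 groups stood more than 1 unit above its group for over 3 members. Between replicates the median SD of a member was 1.90 in Nrf2-null gastric reflux and 0.59 in Nrf2-null without reflux, against 0.040 to 0.39 in the 6 other groups.

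**Figure D1:**
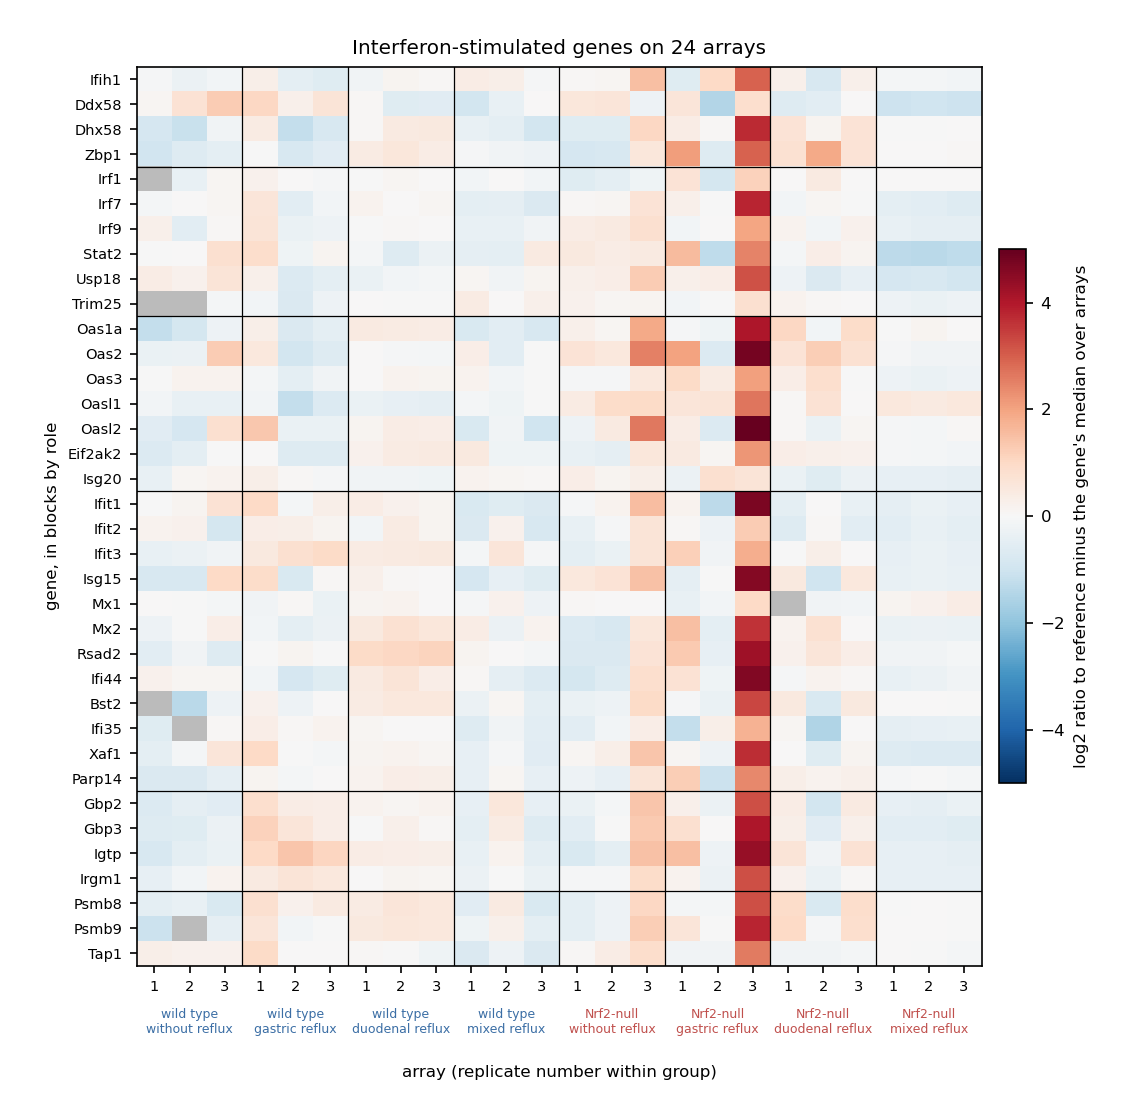
Level of 36 interferon-stimulated genes (rows, in blocks by role) on 24 arrays (columns, 3 per group), as log2 ratio to the reference minus the gene's median over arrays; red is above and blue below that median, and grey was not measured. The column of Nrf2-null gastric reflux replicate 3 is red for nearly every gene, and that of Nrf2-null without reflux replicate 3 is a paler red.

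**Figure D2:**
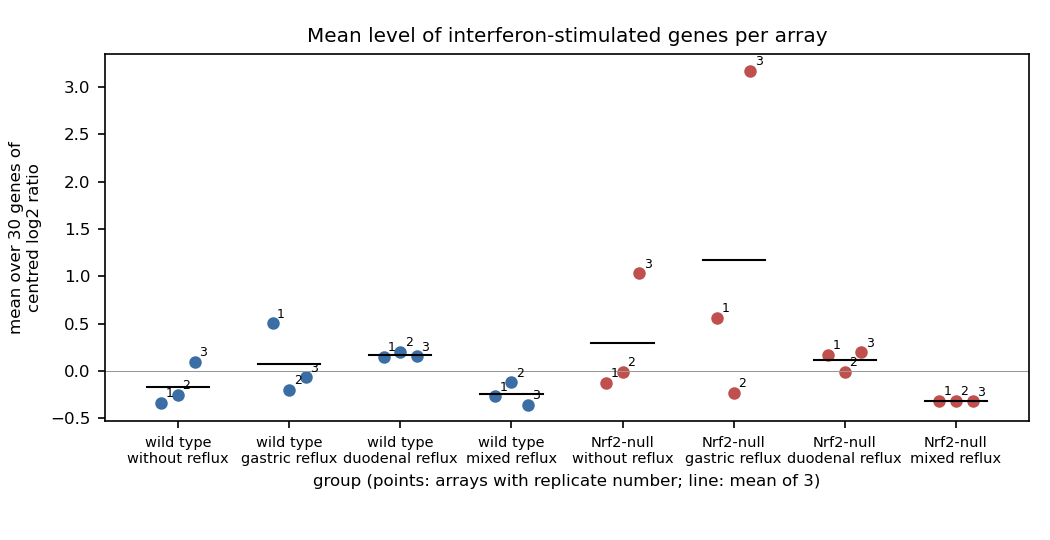
Mean over the 30 genes measured on all arrays of the centred log2 ratio (vertical axis) for each array (points, with replicate number), by group, with the mean of 3 as a line. Nrf2-null gastric reflux replicate 3 lies at 3.17, and Nrf2-null without reflux replicate 3 follows at 1.03.

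Between the genotypes under gastric reflux, 4 of 36 members were called, all higher in Nrf2-null: Oasl1, Oas3, Eif2ak2 and Zbp1. Of all 20389 genes tested, 17.6% were called in this comparison and 10.4% were called higher, so the members' share lay near that of other genes. The median difference over the members was 0.91 on the log2 scale, against 0.11 over all genes, and 35 of 36 members were positive. Without Nrf2-null gastric reflux replicate 3 the median was -0.090, 17 of 36 were positive, and 2 members, Oasl1 and Oas3, were called, with 17.8% of genes. Without both arrays of high member level, a pair picked after seeing the members' values, Irgm1 was called lower besides, with 17.1% of genes called. On every array 4 members were higher in Nrf2-null and 0 lower, against 18.7% and 9.1% of genes. Without replicate 2 of that group, whose sex-linked genes went against its label, 14 members were called higher, with 13.5% of genes called, and the median was 1.75, so the count turned on which array of the group was kept. The count was 10 without its replicate 1, with 24.7% of genes called. It was 7, 2 and 2 without wild type gastric reflux replicates 1, 2 and 3, with 23.1%, 5.02% and 5.86% of genes. With the scan day as a term 0 members were called (limma), with 4 of all genes, and the median was 0.060; since the groups share no scan day, day and genotype cannot be told apart in them. Fitted on these 2 groups alone, limma called 0 members and 1 gene, which is 0.0049% of genes. In the same comparison 4 of 8 endothelial and 3 of 9 fibroblast genes were called lower in Nrf2-null, with medians of -1.07 and -1.29, where 17.6% of genes were called in either direction; their part in the members' values was not tested.

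**Figure D3:**
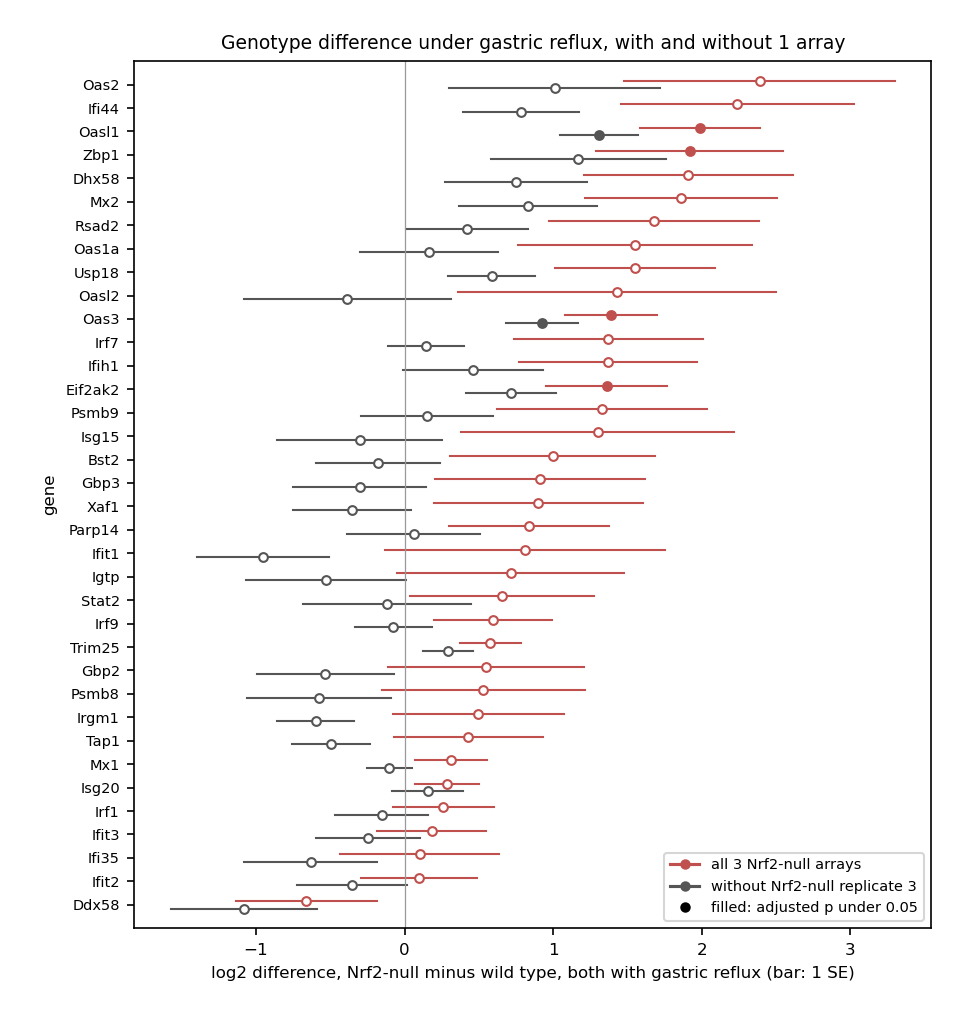
Difference Nrf2-null minus wild type under gastric reflux, on the log2 scale with 1 SE, for 36 members (rows), with all arrays (red) and without Nrf2-null gastric reflux replicate 3 (grey); filled points had an adjusted p under 0.05. Without that array the differences lie on both sides of 0, and Oasl1 and Oas3 remain filled.

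Oasl1, an oligoadenylate synthetase-like protein that lacks the enzyme activity and is known to restrain translation of IRF7, was called between the genotypes both under gastric reflux and over the 4 conditions. Without reflux its wild-type arrays read -0.98, -1.20 and -1.20, and the Nrf2-null arrays -0.43, 0.087 and 0.13. Under gastric reflux the wild type read -0.96, -2.04 and -1.51, and Nrf2-null -0.21, -0.17 and 1.86. Every Nrf2-null array was above every wild-type array in both conditions. Under duodenal reflux the values were -1.18, -1.23 and -1.30 in the wild type and -0.79, -0.10 and -0.80 in Nrf2-null. Under mixed reflux they were -0.92, -1.05 and -0.87 against -0.30, -0.40 and -0.30. The genotypes did not overlap in these conditions either, which were scanned on one day for both genotypes. Under mixed reflux the 3 Nrf2-null arrays count as 1 sample. The difference under gastric reflux was 1.99 ± 0.40 (adjusted p = 0.00561) in limma's fit over all groups (± gives 1 SE throughout), and 1.31 ± 0.26 (adjusted p = 0.00592) without Nrf2-null replicate 3. Averaged over the 4 conditions it was 1.08 ± 0.23 (adjusted p = 0.0078), the 1 member called, against 8.12% of genes called and 5.77% called higher. It was 0.89 ± 0.14 (adjusted p = 0.00228) without both Nrf2-null arrays of high member level, with 5.88% of genes called. With the scan day as a term it was 1.00 with an adjusted p of 0.237, and single-condition differences without reflux (1.05 ± 0.40), under duodenal (0.68 ± 0.40) and mixed reflux (0.61 ± 0.57) were not called. Its probe lies on chromosome 5 at 115387556 to 115387615 (mm9), on the plus strand.

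Oas3, a synthetase of the 2-5A molecules that switch on the ribonuclease RNase L, read -0.60, -1.01 and -0.69 in the wild type under gastric reflux and 0.43, -0.11 and 1.54 in Nrf2-null. With the probe used, again no array overlapped between the genotypes, and the difference was 1.39 ± 0.31 (adjusted p = 0.00824), or 0.93 ± 0.24 (adjusted p = 0.0175) without replicate 3. With the scan day as a term it was 0.80 with an adjusted p of 0.812. Without reflux the genotypes read -0.54, -0.34 and -0.34 in the wild type and -0.56, -0.56 and 0.030 in Nrf2-null, which overlap. Its change of genotype difference from no reflux to gastric reflux was 1.34 ± 0.43 (adjusted p = 0.0984) and was not called. A further probe of Oas3 was above background on 5 of 24 arrays and was not used. Under gastric reflux that probe read -0.307, -0.494 and -0.694 in the wild type and -0.868, -0.775 and 2.02 in Nrf2-null. There only replicate 3 of Nrf2-null lay above the wild type, and replicates 1 and 2 lay below it. The probe used lies on chromosome 5 at 121203598 to 121203657 (mm9), on the minus strand.

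Eif2ak2, which encodes the kinase PKR that halts translation when it binds double-stranded RNA, read 0.16, -0.51 and -0.50 in the wild type and 0.61, 0.26 and 2.36 in Nrf2-null under gastric reflux. The arrays did not overlap, but replicate 3 was far above the others of its group. The difference of 1.36 ± 0.41 (adjusted p = 0.0313) became 0.72 ± 0.30 (adjusted p = 0.104) without it. Zbp1, a sensor of Z-form nucleic acid that can trigger necroptosis, read -0.96, -1.76 and -1.53 in the wild type and 1.13, -1.61 and 2.01 in Nrf2-null. Here replicate 2 of Nrf2-null lay within the wild-type range, and the difference of 1.92 ± 0.63 (adjusted p = 0.044) became 1.17 ± 0.59 (adjusted p = 0.168) without replicate 3 and 2.98 ± 0.41 (adjusted p = 0.00175) without replicate 2. That last fit kept replicate 1, of low Cy5 signal, and replicate 3, which was highest for nearly all members. With the 24 arrays left out one at a time the Zbp1 call was lost in 17 fits and the Eif2ak2 call in 3. The Oas3 and Oasl1 calls were lost in none of these fits. In 17 other settings the Zbp1 call was lost in 11, with adjusted p of 0.0264 to 0.93 (limma). In those settings the Eif2ak2 call was lost in 5, with adjusted p up to 0.915. The Oas3 and Oasl1 calls under gastric reflux were lost in 4 each, with adjusted p up to 0.812 and 0.786.

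Among the RNA sensors, Dhx58, the regulator LGP2 of the RIG-I family, read 0.47, 0.16 and 3.81 in Nrf2-null gastric reflux and -0.52, -0.51 and 1.14 in Nrf2-null without reflux. In the wild type it read -0.74, -1.02 and -0.075 without reflux and 0.50, -1.10 and -0.70 under gastric reflux. Replicate 3 stood above its partners in both Nrf2-null groups. Ifih1, which encodes the long-RNA sensor MDA5, read 0.34, 1.92 and 3.86 in Nrf2-null gastric reflux, with replicate 3 highest, and 1.22, 0.45 and 0.32 in the wild type. Neither difference between genotypes under gastric reflux was called: it was 1.91 ± 0.70 (adjusted p = 0.0667) for Dhx58 and 1.37 ± 0.60 (adjusted p = 0.116) for Ifih1. The brightest probe of Ddx58 read -0.49, -2.53 and -0.24 in Nrf2-null gastric reflux, where replicate 3 did not stand out from replicate 1. The probes of Ddx58 disagreed: on replicate 3 the probe used was 0.84 above its median over arrays, and the 2 others that passed the filter were 1.43 and 1.81 above theirs. Both of those others had their highest level of all arrays on replicate 3, so the exception of Ddx58 holds for the brightest probe.

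Among the transcription factors and regulators of the pathway, Irf7, the factor that amplifies type I interferon production, read -1.57, -1.86 and 1.96 in Nrf2-null gastric reflux, and -2.55 to -1.14 on every array of the other groups. Only replicate 3 left that range. Stat2 read 1.23, -1.63 and 2.12 in Nrf2-null gastric reflux, 0.15, 0.015 and 0.11 in Nrf2-null without reflux and -1.65, -1.71 and -1.63 in Nrf2-null mixed reflux. Replicates 1 and 3 of the gastric group were above, and replicate 2 below, all arrays without reflux. Usp18, which removes ISG15 from proteins and damps the receptor, read -1.60, -1.53 and 1.34 in Nrf2-null gastric reflux and -1.60, -1.53 and -0.57 in Nrf2-null without reflux. Under duodenal reflux Usp18 in Nrf2-null read -2.09, -2.56 and -2.24, below all 3 arrays without reflux, and under mixed reflux -2.68, -2.66 and -2.76. Its difference from no reflux was -1.06 ± 0.54 (adjusted p = 0.173) under duodenal reflux with all arrays, -1.06 ± 0.26 (adjusted p = 0.00999) without Nrf2-null gastric reflux replicate 3, and -0.73 ± 0.23 (adjusted p = 0.0426) without both arrays of high member level; 20.7% and 18.4% of genes were called in those fits. Under mixed reflux it was -1.47 ± 0.76 (adjusted p = 0.308) with all arrays, then -1.47 ± 0.37 (adjusted p = 0.031) and -1.13 ± 0.31 (adjusted p = 0.0468), with 4.9% and 5.88% of genes called. Irf9, the DNA-binding partner of STAT2, read 0.68, 0.86 and 2.78 in Nrf2-null gastric reflux, again with replicate 3 on top. Irf1 ranged from -1.95 to 0.067 over 23 arrays and Trim25, a ligase that activates RIG-I, from 0.10 to 1.60 over 22, and both had their highest value on replicate 3 with the probes used. The other Trim25 probe read 4.62 there and was highest, at 5.03, on Nrf2-null duodenal reflux replicate 2.

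Of the synthetases, Oasl2 had the widest spread in one group, with -0.82, -1.87 and 4.09 in Nrf2-null gastric reflux and -1.45, -0.72 and 1.45 in Nrf2-null without reflux. In the wild type it read -1.74, -2.03 and -0.39 without reflux and 0.17, -1.53 and -1.53 under gastric reflux. In each of these 4 groups 1 array lay above the other 2, by 1 log2 unit or more. Oas2 read 0.12, -2.58 and 2.90 in Nrf2-null gastric reflux and -1.38, -2.81 and -2.53 in the wild type, a difference of 2.39 ± 0.91 (adjusted p = 0.0759). Oas1a read -1.24, -1.42 and 2.84 in Nrf2-null gastric reflux and -0.95, -1.11 and 0.72 in Nrf2-null without reflux; it belongs to a cluster of near-identical copies, so its probe may also read its neighbours. Both had replicate 3 highest.

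Isg20 was called lower under duodenal reflux in Nrf2-null, the 1 member called there, where 19.8% of all genes were called and 6.35% were called lower. On every array 2 members were higher than without reflux and 6 lower, against 27.4% and 16.9% of genes. Isg20 read -0.94, -1.11 and -0.94 in Nrf2-null without reflux and -1.57, -1.87 and -1.54 under duodenal reflux, with no overlap, and -1.66, -1.68 and -1.70 under mixed reflux. The difference was -0.66 ± 0.22 (adjusted p = 0.0398). It rests near the threshold: the adjusted p was 0.0534 with the replicate number as a block, and the call was lost when any 1 of 9 single arrays, those of the 2 groups compared and of wild type duodenal reflux, was left out. With the mean of its 2 probes the difference was -0.645 (adjusted p = 0.0535). The probe used lies on chromosome 7 at 86061478 to 86061537 (mm9), on the plus strand. In the wild type the groups read -1.62, -1.16 and -1.06 without reflux and -1.42, -1.44 and -1.47 under duodenal reflux, which overlap with the probe used. The other Isg20 probe read -1.1, -1.07 and -1.11 and then -1.51, -1.4 and -1.4 in the wild type, without overlap. In Nrf2-null that probe read -0.98, -1.03 and -1.01 and then -1.5, -1.82 and -1.58, also without overlap.

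Among the antiviral effectors, Isg15, the ubiquitin-like protein that is coupled to other proteins, read -1.97, -1.55 and 3.06 in Nrf2-null gastric reflux and -1.03, -0.86 and -0.066 in Nrf2-null without reflux. The wild type read -2.33, -2.33 and -0.55 without reflux and -0.62, -2.29 and -1.48 under gastric reflux, with replicate 3 highest in the first group and replicate 1 in the second. Ifit1, which binds RNA that lacks the host cap methylation, read -2.37, -3.84 and 2.18 in Nrf2-null gastric reflux. It read -1.56, -2.63 and -2.27 in the wild type, so replicate 1 of Nrf2-null lay within the wild-type range, replicate 2 below it and replicate 3 above it. The difference of 0.81 ± 0.94 (adjusted p = 0.564) turned to -0.95 ± 0.44 (adjusted p = 0.137) without replicate 3. Ifi44 read -3.19, -4.11 and 0.71 in Nrf2-null gastric reflux and -4.76 to -3.07 on the arrays of the 7 other groups, so replicate 3 alone was above that range. Rsad2, which encodes viperin, an enzyme that makes a chain-terminating nucleotide, read -1.13, -2.83 and 1.79 in Nrf2-null gastric reflux.

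With the probe used, Rsad2 read higher on every array under duodenal reflux in the wild type, but was not called with all arrays. Without reflux its wild-type arrays read -2.94, -2.59 and -3.07 and with duodenal reflux -1.49, -1.40 and -1.31, without overlap. The difference was 1.47 ± 0.71 (adjusted p = 0.205) with all arrays, and 1.47 ± 0.37 (adjusted p = 0.0178) without Nrf2-null gastric reflux replicate 3, with 10.9% of genes called then; that array belongs to neither group and enters through the spread pooled over all groups. In Nrf2-null the arrays read -3.17, -3.16 and -1.75 without reflux and -2.23, -1.83 and -2.10 under duodenal reflux, which overlap through replicate 3 without reflux, and the difference was 0.64 ± 0.71 (adjusted p = 0.561), or 1.11 ± 0.32 (adjusted p = 0.0276) without both arrays of high member level. That pair was picked after seeing the members' values and holds the replicate 3 that overlapped. The smaller p-value therefore follows from the choice and is no separate support. The other Rsad2 probes that passed the filter overlapped between these conditions in both genotypes. In the wild type one read -1.25, -0.41 and -1.16 without reflux and -0.70, -0.83 and -0.84 under duodenal reflux. The next read -0.89, -0.41 and -1.03 and then -0.60, -0.61 and -0.65. In Nrf2-null the former read -1.18, -1.08 and -1 and then -1.39, -0.62 and -1.12. The latter read -0.81, -1.12 and -0.7 and then -1.42, -1 and -1.29. Mx1, which is known to be inactive in C57BL/6 mice, was never well above background in 3 groups (wild type without reflux, wild type mixed reflux and Nrf2-null without reflux). Its levels ranged from -0.25 to 1.12, with replicate 3 of Nrf2-null gastric reflux highest.

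Ifit2, Ifit3, Mx2, Bst2 (tetherin, which holds budding virus on the cell), Ifi35, Xaf1 and Parp14 likewise had their highest value on Nrf2-null gastric reflux replicate 3 with the probes used. The other Ifit2 probe read -1.03 there and was highest, at -0.39, on wild type gastric reflux replicate 1. Of the 2 other Parp14 probes, one was highest there, at 0.48, and one read 0.57 there and was highest, at 2.14, on replicate 1 of the same group. Mx2 read -0.29, -2.28 and 1.80 there. Bst2 read -2.23, -2.52 and 1.15. Xaf1 read -1.18, -1.51 and 2.42. In each, replicate 3 was more than 1 log2 unit above both partners.

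The interferon-inducible GTPases, which attack the vacuoles of intracellular microbes, read higher on every array under gastric reflux in the wild type, though none was called with all arrays. Igtp read -2.62, -2.31 and -2.15 without reflux and -0.80, -0.43 and -0.74 under gastric reflux. Gbp2 read -0.67, -0.42 and -0.56 and then 0.86, 0.39 and 0.34. Gbp3 read -1.44, -1.41 and -1.11 and then 0.34, -0.21 and -0.49. No array of one group overlapped the other for these genes, nor for Irgm1, whose levels were -1.45, -1.15 and -0.86 and -0.57, -0.39 and -0.50. The immunoproteasome subunits Psmb8 and Psmb9, which cut peptides for MHC class I, separated in the same way. Psmb8 read -2.63, -2.49 and -2.88 without reflux and -1.34, -1.92 and -1.70 under gastric reflux. Psmb9 read -2.43 and -1.77 on the 2 arrays that measured it without reflux and -0.74, -1.49 and -1.37 under gastric reflux. Tap1, the peptide transporter next to them in the genome, did not separate, with -0.79, -0.86 and -0.86 and -0.14, -1.07 and -1.08. Of the wild-type arrays without reflux, only replicate 3 was scanned on the day of the gastric arrays. For the 4 GTPases, Psmb8 and Psmb9 its place below the gastric arrays follows from the separation and adds nothing to it.

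Over all members, 11 of 35 were higher on every wild-type gastric array than on every array without reflux and 2 were lower, against 15% and 17.3% of 17324 genes. The differences were 1.70 ± 0.76 (adjusted p = 0.209) for Igtp, 1.20 ± 0.71 (adjusted p = 0.343) for Gbp3, 1.08 ± 0.66 (adjusted p = 0.366) for Gbp2 and 1.01 ± 0.68 (adjusted p = 0.42) for Psmb8. With the spread pooled over all groups limma called 0 of 36 members, and 4.15% of genes; 2 members had an unadjusted p under 0.05, as had 21.4% of genes. Fitted on these 2 groups alone, 5 members were called higher, with 3.53% of genes: Igtp at 1.70 ± 0.18 (adjusted p = 0.0178), Gbp2, Gbp3, Ifit3 and Psmb8. Without both Nrf2-null arrays of high member level, Igtp, Gbp3 and Ifit3 were called in the pooled fit, with 3.2% of genes. Within the shared scan day, which holds only 1 array without reflux (replicate 3), the members' median difference was -0.079, against 0.18 over all arrays, and limma called 0 members and 8 genes.

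**Figure D4:**
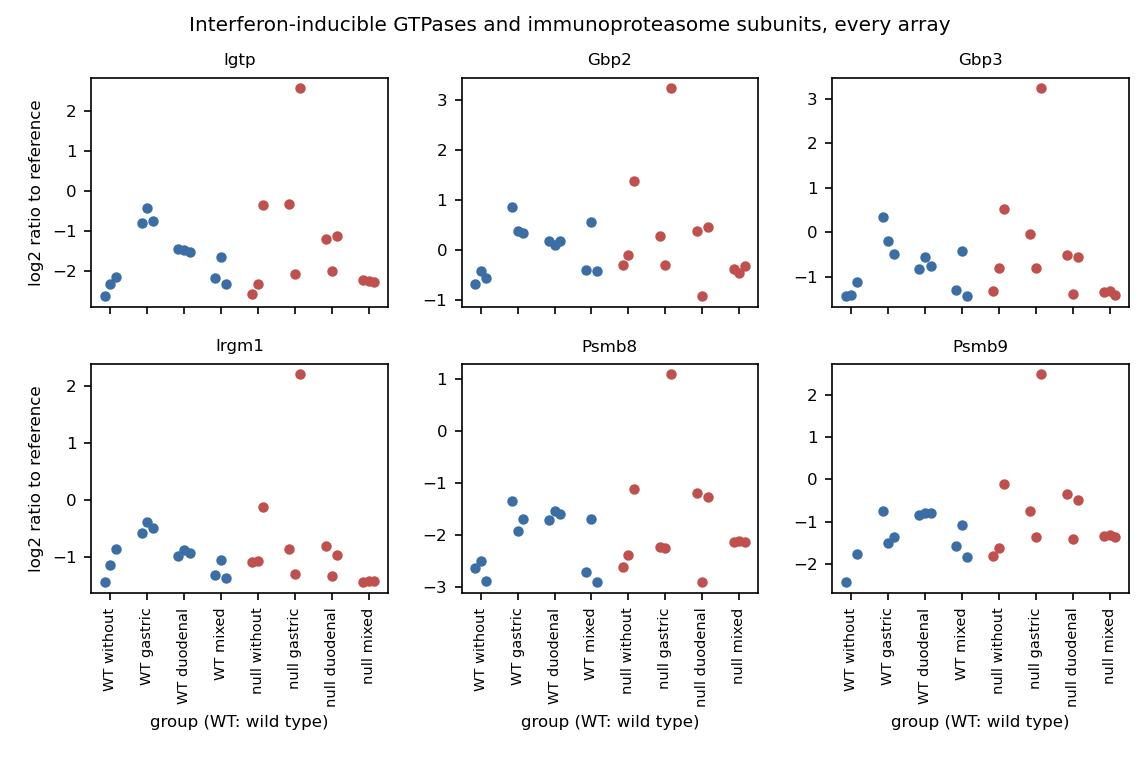
Log2 ratio to the reference (vertical axis) of 4 interferon-inducible GTPases and 2 immunoproteasome subunits on every array, by group (blue, wild type; red, Nrf2-null). In the wild type all 3 gastric reflux arrays lie above all arrays without reflux for each gene, and Nrf2-null gastric reflux replicate 3 is the highest point of each panel.

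In Nrf2-null the same genes did not separate by gastric reflux. Igtp read -2.57, -2.30 and -0.35 without reflux and -0.32, -2.06 and 2.55 under gastric reflux. Gbp2 read -0.30, -0.085 and 1.39 and then 0.28, -0.29 and 3.24. Psmb9 read -1.81, -1.61 and -0.11 and then -0.75, -1.35 and 2.48. The ranges overlapped for each of these genes, and 0 of 36 members separated in either direction, against 10.2% and 5.93% of 20388 genes. By limma 0 members were called, 9 had an unadjusted p under 0.05, against 16.9% of genes, and 0.584% of genes were called; without replicate 2 of Nrf2-null gastric reflux 9 members were called higher, with 1.46% of genes. The genotype's change of the gastric reflux effect was 0.10 ± 1.08 (adjusted p = 0.965) for Igtp. An F test in limma of all 3 changes of the genotype difference with reflux called 0 of 36 members and 4.22% of 20385 genes; 1 member had an unadjusted p under 0.05, as did 25.5% of genes.

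Under duodenal reflux in the wild type 16 of 35 members were higher on every array than without reflux and 4 were lower, against 31.5% and 18.8% of 17322 genes. Zbp1 read -1.92, -1.60 and -1.45 without reflux and -0.53, -0.40 and -0.57 under duodenal reflux. Psmb8 read -1.71, -1.53 and -1.60 and Igtp -1.45, -1.47 and -1.52 under duodenal reflux, above their levels without reflux. With the probes used, Ddx58, Stat2, Usp18 and Tap1 were the 4 that were lower. The pooled fit in limma called 0 of 36 members and 10.4% of genes; 1 member had an unadjusted p under 0.05, against 25.1% of genes. Without both Nrf2-null arrays of high member level it called 5 members higher (Bst2, Psmb9, Oas1a, Eif2ak2 and Rsad2), with 11.5% of genes. In a fit on these 2 groups alone, whose duodenal arrays had a median member SD of 0.085, 14 members were called higher and 3 lower, with 33.4% of genes. With the probes used, the largest in that limma fit were Rsad2 at 1.47 ± 0.14 (adjusted p = 0.000351), Psmb9 at 1.29 ± 0.19 (adjusted p = 0.00349) and Bst2 at 1.27 ± 0.29 (adjusted p = 0.0159). Ddx58 was among those lower, at -1.06 ± 0.30 (adjusted p = 0.0296). The other Rsad2 probes that passed the filter overlapped between these 2 groups, as did those of Ddx58. One Ddx58 probe read -0.71, -0.34 and -0.72 without reflux and -0.24, -0.39 and 0.0077 under duodenal reflux. The other read -1.48, -1.11 and -1.01 and then -1.47, -1.62 and -1.53. These 2 groups share no scan day, so day and reflux cannot be told apart, and with the day as a term in the pooled fit the members' median difference turned from 0.30 to -0.72. That term links the last 2 days through Nrf2-null without reflux, whose only array on the last day is the high replicate 3.

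The remaining comparisons called 0 members in limma. Between the genotypes without reflux 1 of 36 had an unadjusted p under 0.05, as had 7.82% of genes, and 0.172% of genes were called. Of 35 members 7 were higher on every Nrf2-null array, none lower, against 14.2% and 8.85% of genes, and the median difference of 0.32 became 0.089 without the 2 arrays of high member level and -0.22 within the shared scan day, which holds 1 wild-type array. Between the genotypes under duodenal reflux 0 members and 17.9% of genes had an unadjusted p under 0.05, 1.87% of genes were called, and 4 members were higher and 7 lower on every Nrf2-null array, against 22.4% and 16.6% of genes. Fitted on these 2 groups alone, 1 member, Oas2, was called higher, with 3.61% of genes. Under mixed reflux 0 members and 16.9% of genes had an unadjusted p under 0.05 between the genotypes, with 3.41% of genes called. Mixed reflux against none gave 1 member with an unadjusted p under 0.05 in each genotype, against 11.3% of genes in the wild type and 18.9% in Nrf2-null, with 0.054% of genes called in the wild type and 4.74% in Nrf2-null. In the wild type 6 of 35 members were higher and 6 lower on every mixed reflux array, against 16.2% and 7.31% of genes. In a fit of mixed reflux against none in Nrf2-null alone, where the mixed arrays are 1 averaged sample assumed to vary like the group without reflux, 1 member, Stat2, was called lower, with 6.89% of genes.

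The ligands and receptors of the pathway were read from lists. Of 19 interferon ligand genes 9 were tested, Ifnb1 not among them. Ifng, which encodes interferon gamma, read 0.24, 0.48 and 3.28 in Nrf2-null gastric reflux and 0.44, 0.44 and 0.97 in Nrf2-null without reflux. The wild type read 0.050, 0.49 and -0.070 without reflux and 0.71, 1.14 and 1.23 under duodenal reflux. The highest Ifng level was on the array that had the highest level of the members. The 8 ligand genes measured on all arrays, the alpha interferons among them, had a mean centred level of -0.027 on that array, within the -0.22 to 0.42 of all arrays. Of the ligands Ifna9 was called higher in Nrf2-null under gastric reflux (0.70 ± 0.20), and Ifna2 (0.67 ± 0.20) and Ifnab (0.60 ± 0.17) under duodenal reflux in Nrf2-null. Ifna9 read 0.67, 0.275 and 0.14 in Nrf2-null gastric reflux. In Nrf2-null duodenal reflux Ifna2 read 0.12, 0.79 and 0.14 and Ifnab 0.56, 0.90 and 0.42. The highest array of each was one of low Cy5 signal, replicate 1 of the gastric and replicate 2 of the duodenal group. Of the 9 ligands tested, 6 to 9 were above background on an array. Ifna12 was called lower in Nrf2-null than in the wild type under duodenal reflux (-0.57 ± 0.14), and Ifnz higher in Nrf2-null for the mean over conditions (0.34 ± 0.084). Of 6 receptor chains, Ifnlr1 (1.18 ± 0.36) and Il10rb (0.79 ± 0.19), which pair as the interferon lambda receptor, were called higher in Nrf2-null under gastric reflux. Ifnlr1 read 4.67, 3.56 and 3.08 there, against 3.00, 2.49 and 2.29 in the wild type. Il10rb read 1.96, 1.42 and 1.42, against 1.15, 0.54 and 0.75. Both were highest on Nrf2-null replicate 1, the array of low Cy5 signal. Ifnar2 was called higher under duodenal reflux in the wild type (0.69 ± 0.20) and in Nrf2-null (0.88 ± 0.20), and Ifngr1 in Nrf2-null (0.85 ± 0.26). Ifngr2 was called higher in Nrf2-null than in the wild type under duodenal reflux (1.00 ± 0.19). For these and the lists that follow, the share of all genes called was 17.6% between the genotypes under gastric reflux, 1.87% under duodenal reflux and 8.12% for the mean over conditions, and 10.4% and 19.8% under duodenal reflux in the wild type and Nrf2-null.

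Among 14 signalling genes 4 were called higher and 1 lower in Nrf2-null under gastric reflux, against 17.6% of genes called, and 5 higher and 3 lower under duodenal reflux in Nrf2-null, against 19.8%. Those under duodenal reflux included Socs1 (2.69 ± 0.32) and Socs3 (1.64 ± 0.20), inhibitors of JAK kinases, and the kinase genes Jak1 (-1.03 ± 0.25) and Tyk2 (-0.67 ± 0.16). Socs3 was also called higher in Nrf2-null than in the wild type under duodenal reflux (1.33 ± 0.20). In nucleic acid sensing, 4 of 12 genes were called higher under duodenal reflux in the wild type, against 10.4% of genes called in either direction, and 5 in Nrf2-null, against 19.8%, none lower, among them the DNA sensor gene Ifi204 (2.83 ± 0.48 and 1.85 ± 0.48), Nod2 (1.36 ± 0.33 and 1.79 ± 0.33) and Sting1 (0.85 ± 0.26 and 1.58 ± 0.26).

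A list of 40 other interferon-induced genes followed the same array. Of 35 measured on all arrays 30 were highest on Nrf2-null gastric reflux replicate 3, against 3.05% of 15261 genes. Cxcl9, a chemokine induced by interferon gamma, read 0.13, 0.77 and 5.38 in Nrf2-null gastric reflux and 0.60, 0.96 and 2.77 in Nrf2-null without reflux. Cxcl10 read -2.30, -4.18 and 2.69 and -3.15, -3.18 and -0.93. In both genes the high arrays were replicate 3 of each group. The wild type had Cxcl9 at 0.22, 0.43 and 0.43 without reflux and 2.35, 2.51 and 2.32 under duodenal reflux, and Cxcl10 at -3.91, -2.71 and -3.87 and -0.68, -0.67 and -0.49, in each case with no overlap. Neither gene was called in that comparison, where 31.5% of genes were higher on every array. Those groups also shared no scan day. Of the 40 genes 3 were called higher in Nrf2-null under gastric reflux (Herc6, Sp100 and Pml) and 3 higher under duodenal reflux in the wild type, the membrane proteins Ifitm1 (1.53 ± 0.36), Ifitm2 (1.14 ± 0.26) and Ifitm3 (1.26 ± 0.35). In Nrf2-null Samd9l was called lower under duodenal reflux (-1.50 ± 0.50). Ifitm1 was called higher under duodenal (1.92 ± 0.36) and mixed reflux (2.04 ± 0.51) in Nrf2-null too. In the MHC class I list, 1 of 14 genes, Psme1, was called higher in Nrf2-null under gastric reflux (0.67 ± 0.20); B2m, the light chain of MHC class I, read -3.64, -3.33 and 0.86 there.

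**Figure D5:**
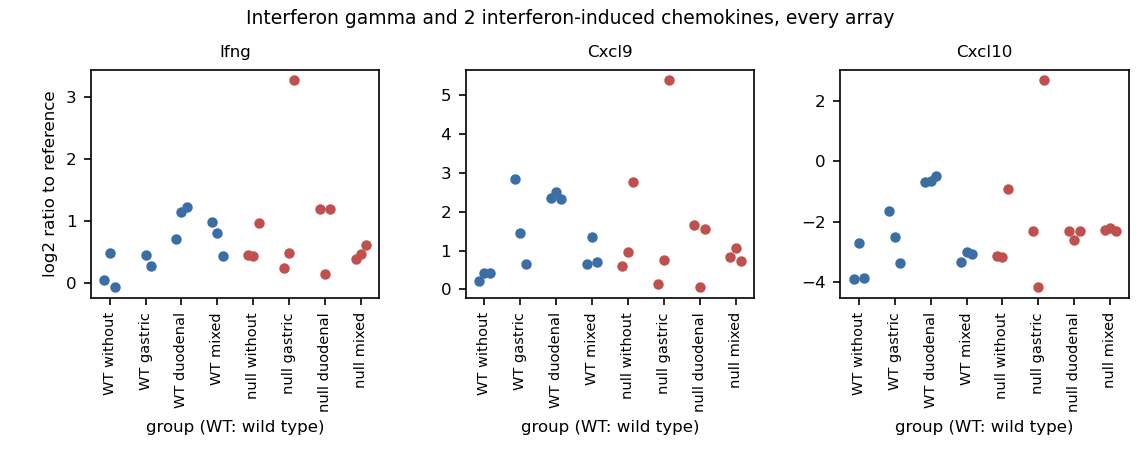
Log2 ratio to the reference (vertical axis) of Ifng, Cxcl9 and Cxcl10 on every array, by group (blue, wild type; red, Nrf2-null). Each panel has its highest point in Nrf2-null gastric reflux, and for Cxcl10 the 3 arrays of wild type duodenal reflux lie above the other wild-type arrays.

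Markers of T and NK cells and of macrophages were also high on that array. The mean centred level of 12 T and NK cell genes was 1.33 on Nrf2-null gastric reflux replicate 3 and -0.85 to 0.70 in the 7 other groups, and that of 10 macrophage genes was 0.82 there, against -1.31 to 0.64. Neutrophil genes did not follow: 8 of them gave -0.27 on that array, the lowest of its group, and their highest levels were in Nrf2-null mixed reflux (2.19 to 2.28). The 4 plasmacytoid dendritic cell genes measured on all arrays gave 0.10 there, and Siglech, which marks these cells, had no probe that passed the filter. Under duodenal reflux in the wild type 6 of 12 T and NK cell genes were called higher and none lower, against 10.4% of genes called, with a level of 0.61 to 0.70, against -0.85 to -0.45 without reflux. Under gastric reflux in the wild type 0 of 12 macrophage genes and 0 of 12 T and NK cell genes were called, with median differences of 0.88 and 0.35, with 3 and 0 at an unadjusted p under 0.05 in limma, while 2 of 8 endothelial genes and 1 of 9 fibroblast genes were called higher, against 4.15% of genes called. The part of these cells in the members' levels was not tested, and in bulk tissue fewer cells of a type and less RNA per cell cannot be told apart.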

How the data were processed

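RNA of 24 samples was hybridised to 2-colour Agilent arrays with no dye swap (Cy5, oesophagus; Cy3, common reference). Per the file headers, the deposited files hold spot and background intensity, and a log10 ratio of red over green, from Agilent Feature Extraction 10.5.1.1 (slide 1, mm7 annotation) or 10.7.3.1 (other arrays, mm9); the submitters' processing notes name 9.1. The authors also deposited a value table, read here as log2 ratios from its slope of 2.68 to 3.14 on the log10 ratios; its normalisation is unknown here, and it served as an alternative.

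From the mean and local background intensities, limma 3.58.1 in R 4.3.3 applied normexp (offset 50) and loess within each array, with 1639 control spots at weight 0. Spots marked as outliers were left out, and a local background so marked took the median background of its array. Repeat spots were averaged, and each gene took its brightest probe among those whose Cy5 signal was well above background throughout 1 group or more. Of 41174 probes, 26918 were named by accession, 5082 by symbol, 817 by synonym and 8357 by the file's name. A model with 8 group means was fitted to 22 samples (the 3 near-identical Nrf2-null mixed reflux arrays averaged into 1), with limma's moderated test and Benjamini-Hochberg adjustment over all 20389 genes; "called" means an adjusted p under 0.05. A comparison of 2 groups still draws its spread from all 8. The number of arrays limits the precision. The scripts were tested on simulated data. Replicate numbers did not pair the samples.

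The members and the pathway and cell type lists were chosen with earlier results of these data known. Any member could be named; members that were called, or whose group 1 array carried, got full statistics. Genes of the pathway lists were named where called, up to 4 per list and comparison; Ifng, Cxcl9, Cxcl10 and B2m were added after their values were seen, and 1 listed gene is not reported here. Alternatives covered background, normalisation, filter, probe choice, scan day, slide, replicate block, the groups fitted and each array left out.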

Additional observations from a re-analysis of the deposited data

Results flagged for a closer look

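Mx1 was singled out because its difference ran in opposite directions on all arrays in 2 settings. Between the genotypes it was 0.054 without reflux and -0.24 under duodenal reflux, on the log2 scale. The effect of duodenal reflux was 0.13 in the wild type and -0.17 in Nrf2-null. Both are the same contrast, -0.299 ± 0.368 (SE), which limma's test did not call (adjusted p = 0.707). The Mx1 probe was well above background on 8 of 24 arrays, and on none in wild type without reflux, wild type mixed reflux or Nrf2-null without reflux.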

How the results depend on the processing

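The number of members called moved with the fit. The calls of Oasl1, Oas3, Eif2ak2, Zbp1 and Isg20 changed sign in no setting, but the members' median did in 10 of the 11 comparisons, all but mixed reflux in Nrf2-null. Between the genotypes under gastric reflux it turned from 0.906 to -0.0896 without Nrf2-null gastric reflux replicate 3. With the scan day as a block it turned from 0.304 to -0.717 for duodenal reflux, 0.184 to -0.0792 for gastric and 0.0491 to -1.14 for mixed reflux in the wild type, and from 0.321 to -0.222 between the genotypes without reflux. With each array left out in turn the count ranged from 2 to 14 between the genotypes under gastric reflux, 1 to 4 for the mean over conditions, 0 to 1 for gastric and 0 to 2 for duodenal reflux in the wild type, 0 to 9 for gastric, 0 to 3 for duodenal and 0 to 1 for mixed reflux in Nrf2-null, 0 to 4 in the F test, and 0 to 0 elsewhere.

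In what follows the share of all genes called in the same fit stands in brackets after each count. Between the genotypes under gastric reflux the count was 0 with median centring (9.97%), the scan day (0.0196%) or slide (0.0638%) as a block, or the 2 groups alone (0.0049%), 9 with the Nrf2-null mixed arrays as 3 samples (23.4%) and 10 without both arrays of low Cy5 signal (32.2%). For the mean over conditions it was 0 with the day (0.75%) or slide block (2.95%) and 3 without the low-signal arrays (24.4%). For duodenal reflux in Nrf2-null it was 0 with median centring (11%), the mean of all probes (19.4%), the day block (2.51%), the replicate block (17.5%) or within the third scan day (0.801%), where the group without reflux is 1 array, and 4 with the slide block (36.7%) or without both arrays of high member level (18.4%). For duodenal reflux in the wild type it was 1 with backgrounds as read (21.7%) or the slide block (15.1%), 5 without the high arrays (11.5%) and 17 with its 2 groups alone (33.4%). For gastric reflux in the wild type it was 1 with median centring (12.4%), 3 without the high arrays (3.2%) and 5 with its 2 groups alone (3.53%). For mixed reflux in the wild type it was 1 with backgrounds as read (15.2%) and 2 with the slide block (13.6%). In Nrf2-null it was 2 with the slide block (6.69%), 4 with the mixed arrays as 3 samples (24.7%), and 1 with the 2 groups alone (6.89%), without the high (5.88%) or the low-signal arrays (13.2%). With the slide block it was 3 between the genotypes without reflux (21.2%), 2 under duodenal (25.3%) and 1 under mixed reflux (2.95%), and it was 1 under duodenal reflux with the 2 groups alone (3.61%). The F test gave 1 with backgrounds as read (14.9%), the mixed arrays as 3 samples (20.8%), and without the high (5.38%) or the low-signal arrays (16.9%), and 2 with the slide block (22.4%). The cause was not tested, beyond fewer samples or groups in those fits. Both settings that leave out a pair of arrays were chosen after seeing the data.

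Same-numbered arrays were not paired (correlations of -0.655 to 0.57, median 0.0203, against a median of 0.00382 for other numbers). The replicate block gave Isg20 an adjusted p of 0.0534 and a count of 0 for duodenal reflux in Nrf2-null. Median centring shifted the median of all genes by up to 0.318, between the genotypes without reflux, where the members' median was then 0.973. Mx1 was the member closest to background.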
